A study of Bos taurus with 24 samples.

Results

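The DNA repair and replication factors of bovine oocytes were described at 2 stages and in 2 seasons. They were chosen by symbol from the deposited table, as all genes whose names open with RAD and a digit, XRCC, ERCC, MSH, MLH, PMS, FANC, BRCA, BRCC, PARP, MCM or RFC, together with the RPA subunits, the DNA ligases, ATM, ATR, PCNA and NBN. This gave 79 entries among the 11306 genes listed, under 78 symbols, since MCM4 is listed at 2 loci. The oocytes were aspirated from Angus-based beef cows in May (spring) and July (summer) and were stripped of cumulus cells. GV oocytes, with an intact germinal vesicle, were frozen after collection, and MII oocytes had been matured in vitro to metaphase II. There were 6 libraries in each of the 4 groups. The study describes each library as a pool of 4 oocytes from 1 animal, whereas the sample labels speak of individual cells, and the labels do not say which libraries of different groups share an animal. The season stands for all that differed between May and July in these cows.

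DNA repair works through several pathways that share parts. Mismatch repair corrects replication errors, excision repair removes damaged bases and stretches of a strand, homologous recombination and end joining mend broken chromosomes, and the Fanconi anemia pathway clears crosslinks. Replication uses a helicase built of MCM proteins, the single-strand binding protein RPA, and the sliding clamp PCNA, which the clamp loader RFC places on DNA. A fully grown oocyte has largely stopped transcribing and does not replicate its DNA between the GV stage and MII, so the messages of these factors are a maternal store that the early embryo draws on.

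The values are FPKM, the fragments of a gene scaled by exon length and by library size, so levels can be compared between genes. Each library sums to the same total over the listed genes, between 86768.1 and 86768.2, so an FPKM is a share, and a gene lost in some oocytes of a pool cannot be told apart from a lower level in all of them. The lowest value listed, 0.01, stands for a gene without reads. Counts are not given, and a depth relative to spring GV replicate 1 was read from the steps between low values. Spring GV replicate 6 had a relative depth of 0.0565, spring MII replicate 6 one of 0.149 and summer GV replicate 2 one of 0.393. These 3 are called the shallow libraries here, and the others had 0.542 to 6.51. All 13 oocyte markers checked were present in every group. Of 21 marker genes of cumulus and granulosa cells, 19 were listed, and their summed level was 15.4 to 59.8 FPKM in 21 libraries but 122 FPKM in spring MII replicate 6, 178 FPKM in spring GV replicate 3 and 553 FPKM in spring GV replicate 6. Among the spring GV libraries the highest values were 392 FPKM for KRT18, 146 FPKM for KRT8 and 75.7 FPKM for VIM. INHA reached 37.2 FPKM, FST 20.3 FPKM and AMH 13.4 FPKM in these libraries. These maxima did not all come from 1 library, and KRT18 alone made up most of the sum of spring GV replicate 6. By the mean of log2(FPKM + 1) over the 19 genes, spring GV replicate 3 was highest, at 1.80, against 1.35 in spring GV replicate 6. FSHR and CYP19A1 reached at most 0.0352 and 0.0687 FPKM in any library.

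Most of these messages were scarce. Of the 79 members, 48 averaged under 1 FPKM over the 24 libraries and 5 averaged over 10 FPKM. PCNA averaged 135 FPKM and RPA3, the smallest RPA subunit, 110 FPKM. The pair made up a median of 56.5% of the summed FPKM of all members in spring GV oocytes and 75.6% in summer MII oocytes. MCM4 at its locus on chromosome 27, FANCF and LIG1 followed with 26.9, 13.1 and 11.3 FPKM. A gene entered the test when it exceeded 0.1 FPKM in at least 1 library, which 73 members did. The 6 that did not were FANCC, MSH4, PARP8, PARP14, RAD51B and RAD9B, and RAD51B had the highest mean of these, 0.0642 FPKM.

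From GV to MII the members moved in both directions, in shares near those of all genes, and members of the same complex or pathway parted. In both seasons the clamp loader subunits RFC2 and RFC3 fell while the checkpoint clamp loader RAD17 rose. The mismatch repair gene PMS2 fell in both seasons, and MSH6, of the same pathway, rose in spring. Both of these spring calls were lost when certain single libraries were left out. ERCC1, ERCC8, RAD51D and FANCG also fell in both seasons, and ERCC6L and ERCC6L2 rose in both. A member is said to have risen or fallen where the Benjamini-Hochberg adjusted p of limma over all 9526 genes tested was under 0.05, on log2(FPKM + 1). This scale understates the fold change of genes near or under 1 FPKM, so the ratio of the group means is given beside it.

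In spring 8 of the 73 members fell, beside 14.7% of all genes tested, and 8 rose, beside 9.45% of all. In summer 15 fell, beside 23.1% of all genes, and 8 rose, beside 7.67%. As shares of the 73 members, 10.96% fell in spring and 20.5% in summer, and 10.96% rose in each season, which is near the shares of all genes. The median log2 difference of the members was 0.16 in spring and 0.03 in summer, against -0.03 and -0.02 for all genes tested. At the thresholds of the study's methods, an unadjusted p under 0.05 with a fold over 2 on the log2 scale, 2 members were lower and 1 higher in spring (beside 8.25% and 3.57% of all genes), and 4 were lower and 3 higher in summer (beside 9.26% and 2.2%). The 6 libraries of each group did not overlap for 8 members in spring, beside 13.6% of all genes, and for 9 in summer, beside 17.7%.

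The number that rose depended on single libraries and on the scaling. Spring GV replicate 6 was the shallowest library and had the highest sum of granulosa markers. Without it, 22 members rose and 12 fell in spring, beside 15.9% and 22% of all genes. Without summer GV replicate 2, 14 rose and 15 fell in summer, beside 13.1% and 26.2% of all genes, and without summer GV replicate 1, 5 rose and 16 fell, beside 5.42% and 22.3%. When all 3 shallow libraries were left out, 25 members rose and 15 fell in spring, beside 19.3% and 22.6% of all genes, and 14 rose and 15 fell in summer, beside 13.1% and 26.2%. Without the 2 libraries highest in granulosa markers, spring GV replicates 3 and 6, a choice made after seeing the data, 22 rose and 13 fell in spring, beside 16.5% and 24.2% of all genes. After quantile normalization, 30 rose and 8 fell in spring, beside 20.4% and 13.9% of all genes, and 20 rose and 14 fell in summer, beside 23.3% and 18.3%.

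The maturation comparisons of spring and summer share no library. All 8 members that fell in spring also fell in summer, which were 8 of the 15 that fell there, and 4 of the 8 that rose in spring were 4 of the 8 that rose in summer. No member rose in one season and fell in the other. Over all genes tested, 1259 of the 1404 that fell in spring fell in summer, and 455 of the 900 that rose in spring rose in summer. Of the 73 members, 46 passed in neither season, beside 6008 of the 9526 genes. Of these 46 members, 27 had a positive and 10 a negative log2 difference in both seasons, and no such split is given here for all genes. In spring 48 of the 73 members had a positive difference, beside 4214 of the 9526 genes, and in summer 39 had one, beside 4007.

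**Figure D1:**
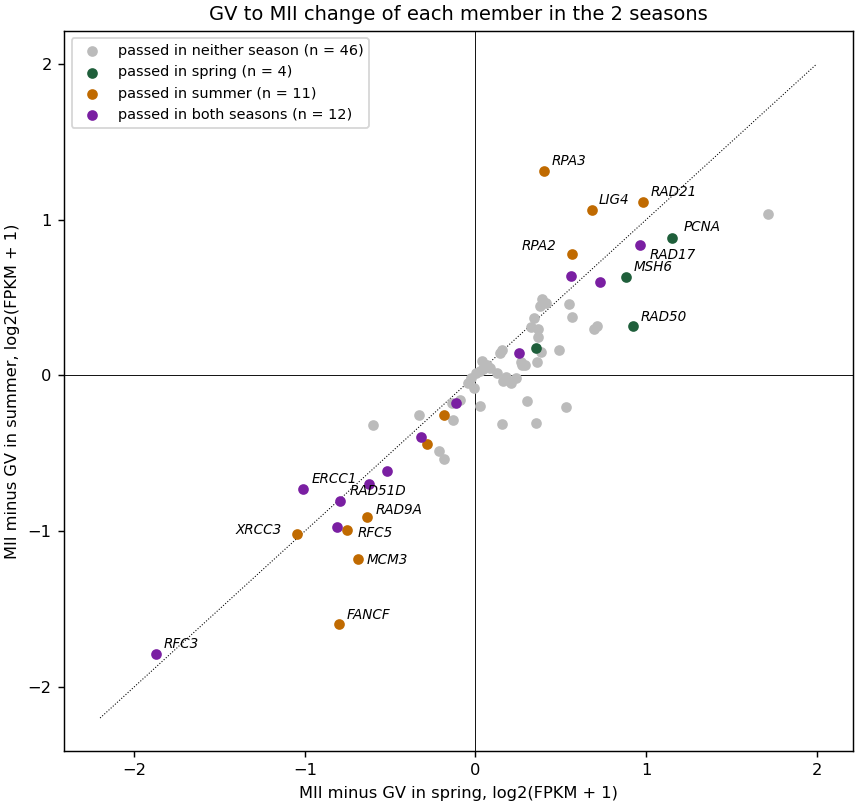
The log2(FPKM + 1) difference between MII and GV oocytes in spring (x axis) and in summer (y axis), with 1 point for each of the 73 members tested and the dotted line marking equal differences. RFC3 stands at the lower left with -1.87 in spring and -1.79 in summer, and no colored point lies at the upper left or lower right.

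PMS2 (chromosome 25, 38552633 to 38575933 on UMD3.1.1), which acts in the cutting of the strand that is to be replaced in mismatch repair, was scarce at both stages. Its values were 0.0643, 0.114 and 0.230 FPKM in spring GV and 0.01, 0.0324 and 0.0666 FPKM in spring MII oocytes, given here and below as the lowest, the median and the highest of the 6 libraries. The spring groups overlapped slightly. In summer they were 0.0763, 0.159 and 0.40 FPKM in GV and 0.0151, 0.0470 and 0.0727 FPKM in MII oocytes, with no overlap. PMS2 fell in both seasons (adjusted p = 0.0352 and 0.0224), and the MII mean was 0.307 times the GV mean in spring and 0.247 times in summer. The spring call was lost when any of 7 libraries was left out, with an adjusted p of up to 0.0716.

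MSH6 (chromosome 11, 29968150 to 29989442), which takes part in recognising mismatches, was the most abundant gene of the pathway. It had 0.795, 1.31 and 2.57 FPKM in spring GV and 1.53, 3.08 and 6.80 FPKM in spring MII oocytes. It rose in spring by 0.88 ± 0.27 (adjusted p = 0.0316), and leaving out any of 5 libraries ended the call, with an adjusted p of up to 0.0750. In summer the difference was 0.63 ± 0.36 (adjusted p = 0.197), with 1.07, 2.06 and 6.26 FPKM in GV and 1.74, 5.20 and 7.68 FPKM in MII oocytes. The summer GV library at 6.26 FPKM was the shallow replicate 2, and without it the summer difference was 0.86 (adjusted p = 0.0489). MSH3, which recognises larger loops, PMS1, and MSH5, which acts in meiotic recombination, had positive differences of 0.14 to 0.38 in both seasons, and none of these 3 passed.

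Among the replication factors, subunits of the clamp loader fell while the clamp rose in spring. RFC is a ring of 1 large and 4 small subunits, of which RFC2 to RFC5 are the small ones and were listed. RFC3 (chromosome 12, 27400067 to 27417181, minus strand) had the largest fall of all members tested in either season. It lay at 7.44, 8.89 and 15.5 FPKM in spring GV and 1.32, 1.80 and 2.80 FPKM in spring MII oocytes. In summer it lay at 5.74, 8.0 and 8.74 FPKM in GV and 1.15, 1.37 and 2.20 FPKM in MII oocytes. The lowest GV library was well above the highest MII library in both seasons. RFC3 fell by 1.87 ± 0.21 in spring (adjusted p = 0.000112) and by 1.79 ± 0.16 in summer (adjusted p = 1.07e-05), to 0.197 and 0.200 times the GV mean. The two-sided exact permutation p was 0.00216 in each season, the smallest that 6 libraries against 6 can give. Its highest value was that of spring GV replicate 3, and without this library and spring GV replicate 6 the spring difference was -1.74 (adjusted p = 0.000120).

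RFC2 (chromosome 25, 33672213 to 33686226) fell in both seasons, by 0.52 ± 0.15 (adjusted p = 0.0253) and by 0.61 ± 0.16 (adjusted p = 0.0122). It had medians of 1.20 and 0.963 FPKM in spring and summer GV oocytes and of 0.435 and 0.410 FPKM in MII oocytes. The spring call was lost without any of 5 libraries, with an adjusted p of up to 0.0689. RFC5, named after its values were seen, fell in summer by 0.99 ± 0.33 (adjusted p = 0.0358) and had a difference of -0.76 in spring (adjusted p = 0.0992). The summer call was lost without any of 6 libraries, with an adjusted p of up to 0.0750. RFC4 passed in neither season. It had medians of 3.06, 2.73, 2.62 and 2.53 FPKM in spring GV, summer GV, spring MII and summer MII oocytes, and differences of 0.02 in spring (95% interval -0.56 to 0.60) and -0.20 in summer (-0.53 to 0.14). The ratio of RFC4 to RFC3 within each library, chosen as the other ratios after the values were seen and given without a test, was at most 0.436 and 0.445 in the GV libraries and at least 0.885 and 1.03 in the MII libraries of spring and summer.

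PCNA (chromosome 13, 47788528 to 47794603) had the highest mean of all members over the 24 libraries and rose in spring. In spring GV oocytes its mean of 70.9 FPKM was under that of RPA3, 99.2 FPKM. Its values were 36.7, 69.5 and 114 FPKM in GV and 84.2, 168 and 238 FPKM in MII oocytes, a rise of 1.15 ± 0.31 (adjusted p = 0.0183). In summer they were 64.7, 98.4 and 135 FPKM in GV and 89.8, 180 and 429 FPKM in MII oocytes, a difference of 0.88 ± 0.34 (adjusted p = 0.0681). The MII mean was 2.26 times the GV mean in spring and 2.06 times in summer. The difference between the seasons' changes was -0.27, with a 95% interval of -1.25 to 0.70.

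RPA3 (chromosome 4, 15600786 to 15603973) rose in summer. Its values were 11.6, 79.5 and 105 FPKM in summer GV and 126, 145 and 176 FPKM in summer MII oocytes, with no overlap, and the rise was 1.31 ± 0.43 (adjusted p = 0.0356). The lowest value was that of the shallow summer GV replicate 2. Without it the difference was 0.86 (adjusted p = 0.00145). Leaving out any of 6 other libraries ended the call, with an adjusted p of up to 0.0652, and quantile normalization gave an adjusted p of 0.0519. In spring RPA3 had 59.9, 84.9 and 186 FPKM in GV and 111, 117 and 140 FPKM in MII oocytes, a difference of 0.40 ± 0.27 (adjusted p = 0.289). RPA2, the middle subunit, rose in summer from a median of 2.33 to 4.68 FPKM (0.78 ± 0.21, adjusted p = 0.0139) and had a difference of 0.56 in spring (adjusted p = 0.108). RPA1, the large subunit, and LIG1, the ligase that seals nicks behind the fork, passed in neither season.

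Of the replicative helicase, MCM3 fell in summer by 1.18 ± 0.34 (adjusted p = 0.0198). Its values were 1.80, 3.27 and 9.73 FPKM in summer GV and 0.593, 0.650 and 2.46 FPKM in summer MII oocytes, and the highest value was that of replicate 2. In spring the difference was -0.69 ± 0.25 (adjusted p = 0.0645). MCM5, MCM6 and MCM7, as well as MCM8, which was grouped here by its name alone, passed in neither season and differed by -0.54 to 0.36. MCM3AP, which carries the name of MCM3 but acts in the export of messages from the nucleus, did not pass either.

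MCM4 could not be read as 1 gene. It is listed on chromosome 14 (21164877 to 21192689) and on chromosome 27 (41044072 to 41049507), and no library had reads at both. In 21 libraries the reads were at the locus on chromosome 27, at 11.7 FPKM or more, and in spring GV replicates 2 and 5 and summer GV replicate 3 they were at the locus on chromosome 14, at 2.33 to 2.80 FPKM. Both entries stay among the 73 members of the counts, medians and figures. Neither passed in any comparison, and no change of MCM4 is read from them. The locus on chromosome 27 had the highest log2 difference of all members from GV to MII in spring, 1.72.

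Of the 9 genes of nucleotide excision repair tested, 2 fell in spring (22.2%, beside 14.7% of all genes) and 3 in summer (33.3%, beside 23.1%), and none rose in either season (beside 9.45% and 7.67% of all genes). ERCC1 (chromosome 18, 53451651 to 53466228), which with ERCC4 forms the nuclease that cuts on the 5' side of a lesion, lay at 1.12, 1.49 and 3.02 FPKM in spring GV and 0.0556, 0.393 and 0.547 FPKM in spring MII oocytes. The summer values were 0.795, 1.47 and 1.78 FPKM in GV and 0.146, 0.459 and 0.785 FPKM in MII oocytes. Neither season had overlapping libraries, although the edges met in summer. It fell by 1.01 ± 0.20 (adjusted p = 0.00397) and by 0.73 ± 0.16 (adjusted p = 0.00393). Its partner ERCC4 had medians of 0.596, 0.836, 0.931 and 0.761 FPKM in spring GV, summer GV, spring MII and summer MII oocytes and passed in neither season. The ratio of ERCC4 to ERCC1 was at most 0.988 in GV libraries and at least 1.08 in MII libraries.

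**Figure D2:**
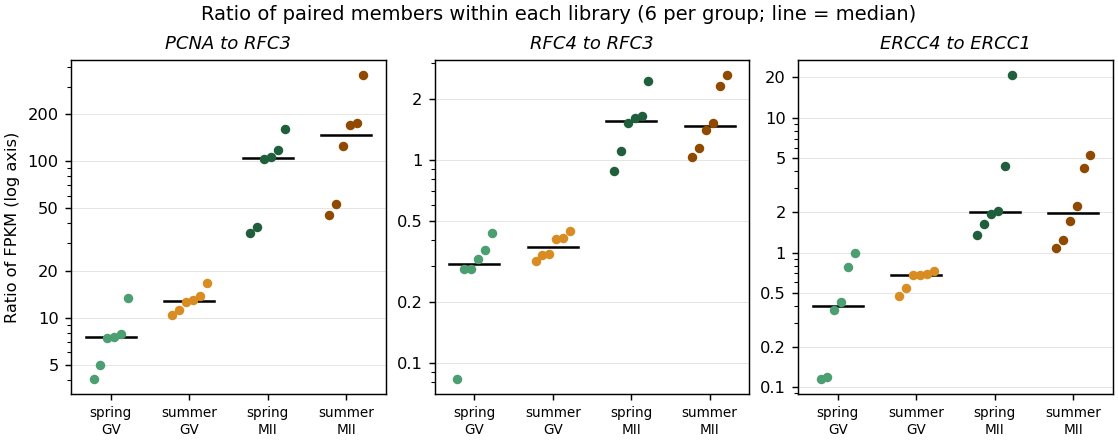
The ratio of the FPKM of PCNA to RFC3, of RFC4 to RFC3 and of ERCC4 to ERCC1 within each library (log axis), with 6 points per group in order of value and a line at the median. PCNA to RFC3 had medians of 7.48 and 12.8 in spring and summer GV oocytes and of 104 and 148 in MII oocytes. GV and MII libraries do not overlap in any of the 3 ratios shown, which were chosen after the values were seen. The ratio of RAD17 to RAD9A, not shown, overlaps in spring through spring GV replicate 6 alone, where RAD9A had no reads.

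ERCC8 (chromosome 20, 18372123 to 18423095), which recognises stalled transcription, had medians of 0.378 and 0.506 FPKM in spring and summer GV oocytes and of 0.113 and 0.108 FPKM in MII oocytes. In each season 1 GV library lay within the range of the MII libraries, the shallow spring replicate 6 at 0.110 FPKM and summer replicate 2 at 0.121 FPKM. ERCC8 fell by 0.32 ± 0.08 (adjusted p = 0.0162) and by 0.39 ± 0.09 (adjusted p = 0.00483), to 0.274 and 0.233 times the GV mean. ERCC2, a helicase of the transcription factor TFIIH that lies 25.9 kb from ERCC1, fell in summer (-0.25 ± 0.08, adjusted p = 0.0293), and its difference in spring was -0.18 (adjusted p = 0.135). The summer call of ERCC2 was lost without any of 3 MII libraries, with an adjusted p of up to 0.0609. ERCC3, the other TFIIH helicase, had differences of 0.55 and 0.46 and did not pass (adjusted p = 0.0733 and 0.125). ERCC5, ERCC6 and RAD23B passed in neither season.

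**Figure D3:**
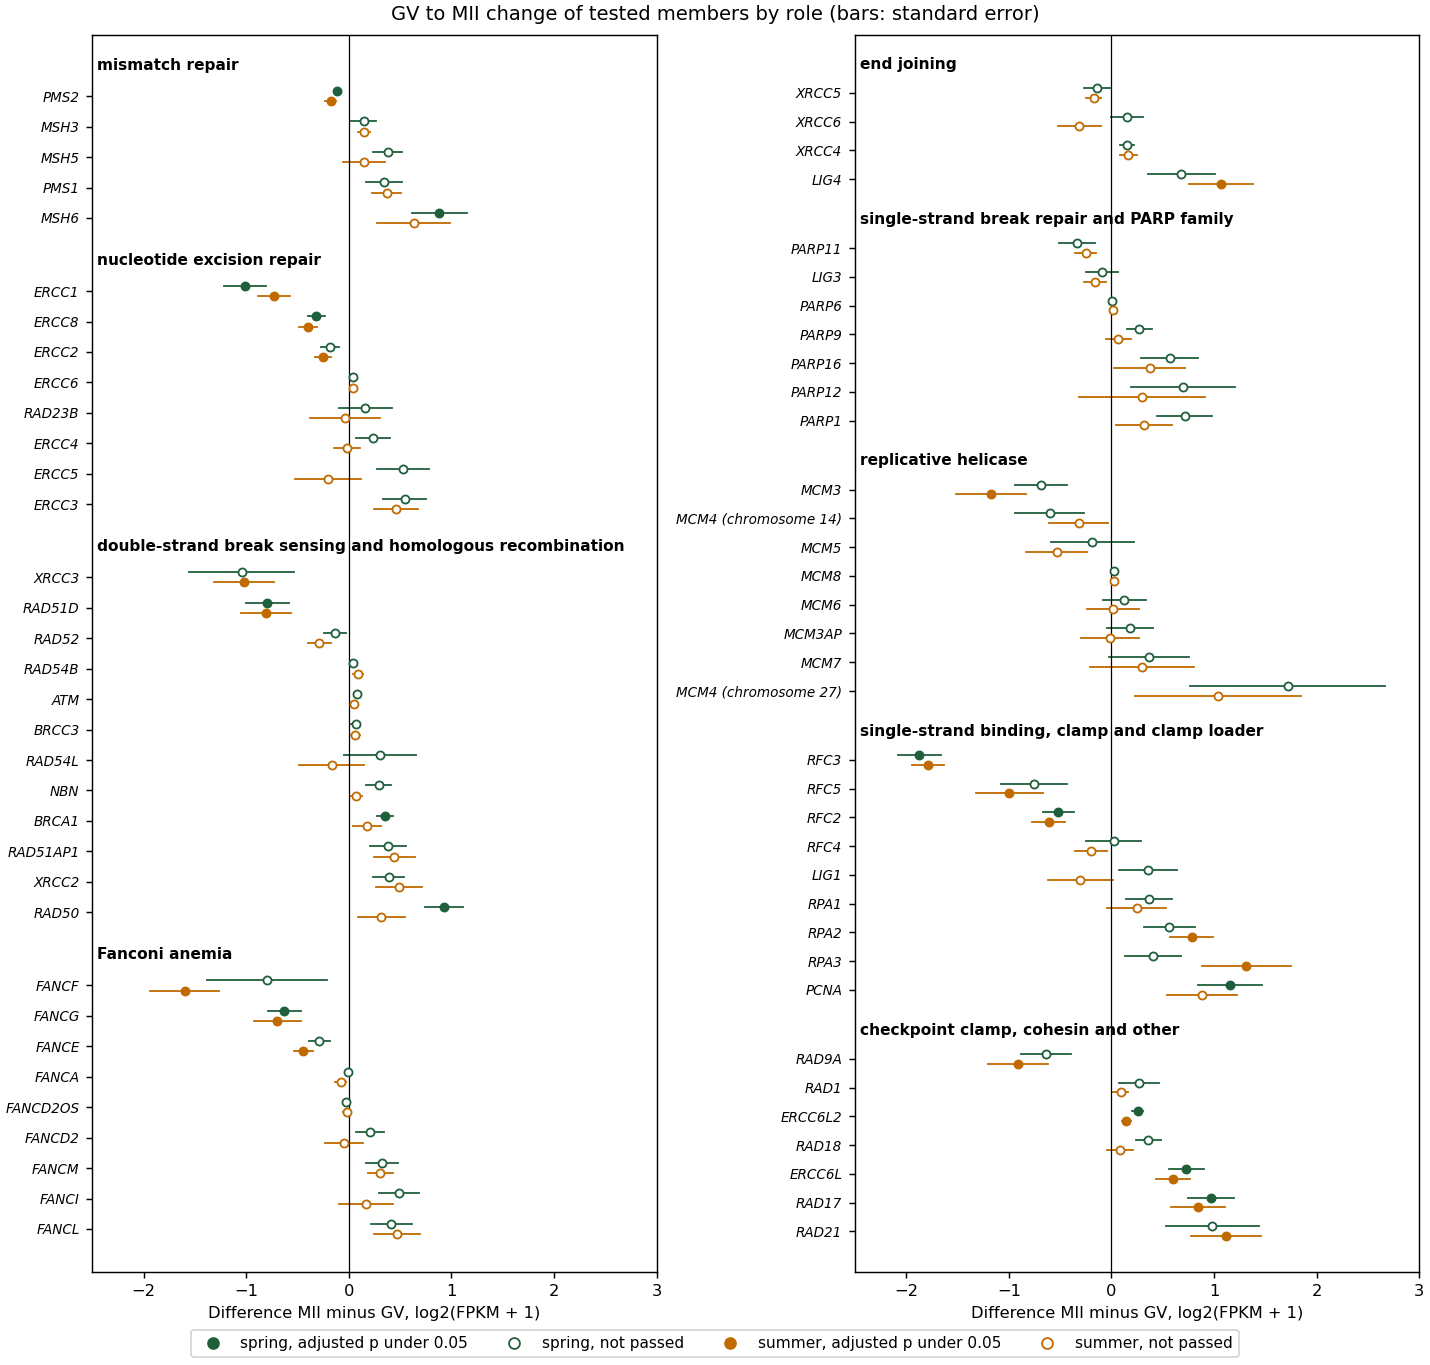
The log2(FPKM + 1) difference between MII and GV oocytes for 69 members, grouped by role, in spring (green) and summer (orange), with bars of 1 standard error and filled points where the adjusted p was under 0.05. Mismatch repair, the clamp and clamp loader, and the Fanconi anemia genes each spread over both sides of 0, and all filled points of nucleotide excision repair and the Fanconi anemia pathway lie left of 0.

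Of the genes of double-strand break sensing and homologous recombination, RAD51D fell in both seasons. It helps to form the protein filament on single strands that searches for homology. RAD51D (chromosome 19, 15297466 to 15309156) lay at 0.524, 1.03 and 2.55 FPKM in spring GV and 0.137, 0.188 and 0.455 FPKM in spring MII oocytes. In summer it lay at 0.464, 0.999 and 3.62 FPKM in GV and 0.0664, 0.294 and 0.588 FPKM in MII oocytes. The groups did not overlap in spring and overlapped slightly in summer. The falls were 0.79 ± 0.21 (adjusted p = 0.0150) and 0.80 ± 0.24 (adjusted p = 0.0240), and the summer call was lost without either of 2 MII libraries, with an adjusted p of up to 0.0567. XRCC3, which acts in the same process, fell in summer (-1.02 ± 0.29, adjusted p = 0.0180) and differed by -1.04 ± 0.51 in spring (adjusted p = 0.147), where GV libraries ranged from 0.688 to 11.3 FPKM. XRCC2, which also acts there, had positive differences of 0.39 and 0.49 that did not pass.

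RAD50 and BRCA1 rose in spring and did not pass in summer. RAD50 (chromosome 7, 23062836 to 23170236) tethers broken ends in the complex with NBN. It lay at 0.964, 1.55 and 2.28 FPKM in spring GV and 2.75, 4.06 and 4.64 FPKM in spring MII oocytes, with no overlap, and rose by 0.92 ± 0.19 (adjusted p = 0.00389). In summer it lay at 1.57, 2.41 and 4.39 FPKM in GV and 1.90, 3.23 and 5.24 FPKM in MII oocytes, a difference of 0.32 ± 0.23 (adjusted p = 0.321). BRCA1 (chromosome 19, 43714457 to 43783352), which promotes recombination at breaks, was scarce. It rose in spring from a median of 0.0933 to 0.429 FPKM (0.35 ± 0.08, adjusted p = 0.00786) and had medians of 0.184 and 0.244 FPKM in summer GV and MII oocytes (0.17 ± 0.14, adjusted p = 0.362). The kinase ATM, NBN, BRCC3, RAD51AP1, RAD52, RAD54B and RAD54L passed in neither season.

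In the Fanconi anemia pathway, 1 of the 9 members tested fell in spring (11.1%, beside 14.7% of all genes) and 3 in summer (33.3%, beside 23.1%), and none rose (beside 9.45% and 7.67%). All 3, FANCE, FANCF and FANCG, belong to the core complex, which marks FANCI and FANCD2 with ubiquitin through the ligase FANCL. A change of the complex as a whole is not read from these 3 genes. FANCL had positive differences in both seasons that did not pass, so no direction was shown for it. FANCG (chromosome 8, 59748226 to 59754145) fell in both seasons, from medians of 0.866 and 0.887 FPKM in GV to 0.118 and 0.194 FPKM in MII oocytes (-0.63 ± 0.16, adjusted p = 0.0126, and -0.70 ± 0.23, adjusted p = 0.0358). The summer call was lost without any of 6 libraries, with an adjusted p of up to 0.0777. FANCF (chromosome 29, 22456238 to 22457441), the most abundant of the pathway, fell in summer by 1.60 ± 0.34 (adjusted p = 0.00351), from 8.67, 16.1 and 36.1 FPKM to 3.11, 4.51 and 8.59 FPKM with no overlap. In spring its GV libraries ranged from 1.43 to 49.4 FPKM and its difference was -0.80 ± 0.59 (adjusted p = 0.326). The lowest of them was the shallow spring GV replicate 6, and without that library the difference was -1.33 (adjusted p = 0.0208). FANCE fell in summer, from a median of 0.477 to 0.0974 FPKM (-0.44 ± 0.10, adjusted p = 0.00436), and had a difference of -0.29 in spring (adjusted p = 0.0561).

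FANCI, FANCL and FANCM, a translocase that recruits the core complex, had positive differences of 0.17 to 0.49 in both seasons, and none of the 3 passed. FANCA differed by -0.01 and -0.08, and FANCD2 by 0.21 and -0.05, without passing. FANCD2OS, listed beside FANCD2 on the opposite strand without overlapping it, stayed under 0.16 FPKM in every library.

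Fewer members passed in the remaining repair pathways. LIG4, the ligase of end joining, rose in summer by 1.06 ± 0.31 (adjusted p = 0.0205), from 0.508, 0.736 and 3.20 FPKM in GV to 1.72, 3.17 and 5.75 FPKM in MII oocytes. In spring it had 0.438, 0.783 and 4.67 FPKM in GV and 1.19, 2.49 and 4.04 FPKM in MII oocytes, a difference of 0.68 ± 0.33 (adjusted p = 0.145). The highest GV value of either season belonged to a shallow library, spring GV replicate 6 and summer GV replicate 2. Without spring GV replicate 6 the spring difference was 0.96 (adjusted p = 0.00831). XRCC4, which holds LIG4, and XRCC5 and XRCC6, the Ku subunits that bind broken ends, passed in neither season. None of the 7 tested members of single-strand break repair and the PARP family passed in either season, PARP1, which senses strand breaks, included (0.71 ± 0.27, adjusted p = 0.0671 in spring). PARP12, the most abundant of them, ranged from 2.30 to 33.3 FPKM over the 24 libraries, and it is a mono-ADP-ribosyltransferase not known as a repair factor.

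Of the checkpoint clamp genes, the loader RAD17 rose in both seasons. RAD17 loads the ring of RAD9A, RAD1 and HUS1 at damaged DNA. RAD17 (chromosome 20, 10266268 to 10300201) lay at 2.84, 4.24 and 7.15 FPKM in spring GV and 7.47, 10.1 and 11.8 FPKM in spring MII oocytes, with no overlap, and rose by 0.97 ± 0.22 (adjusted p = 0.00808). In summer it lay at 3.15, 4.31 and 8.56 FPKM in GV and 5.77, 8.5 and 14.5 FPKM in MII oocytes and rose by 0.84 ± 0.26 (adjusted p = 0.0284), a call that was lost without any of 6 libraries, with an adjusted p of up to 0.0655. RAD9A fell in summer by 0.91 ± 0.29 (adjusted p = 0.0316), from a median of 1.10 to 0.168 FPKM, and its summer GV libraries were highest in the shallow replicate 2 at 5.28 FPKM. Without that library the difference was -0.64 (adjusted p = 0.0080), whereas leaving out any of 6 other libraries ended the call, with an adjusted p of up to 0.0658. In spring the difference of RAD9A was -0.64 ± 0.25 (adjusted p = 0.0744), and that of RAD1 was 0.27 ± 0.20 (adjusted p = 0.330). The ratio of RAD17 to RAD9A overlapped in spring, at 1.87 to 715 in GV and 24.3 to 1181 in MII libraries. The 2 highest ratios were those of the shallow spring GV replicate 6 and spring MII replicate 6, where RAD9A had no reads (0.01 FPKM). The spring overlap came from that GV library alone. In summer it was 1.62 to 6.44 in GV and 15.1 to 105 in MII libraries.

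ERCC6L (chromosome X, 83572299 to 83601872), a translocase that acts on stretched DNA between separating chromosomes rather than in excision repair, rose in both seasons. It lay at 0.267, 0.388 and 0.817 FPKM in spring GV and 0.781, 1.48 and 2.16 FPKM in spring MII oocytes (0.73 ± 0.17, adjusted p = 0.00856). The summer values were 0.353, 0.510 and 0.765 FPKM in GV and 0.721, 1.31 and 2.44 FPKM in MII oocytes (0.60 ± 0.16, adjusted p = 0.0149). ERCC6L2 (chromosome 8, 83978960 to 84134607) rose from medians of 0.0726 and 0.123 FPKM to 0.326 and 0.247 FPKM (adjusted p = 0.00488 and 0.0190), with MII means of 3.36 and 1.95 times the GV means. ERCC6L and ERCC6L2 kept an adjusted p under 0.05 in both seasons in every alternative fit that gave them a value, and neither reached a fold of 2 on the log2(FPKM + 1) scale in either season. RAD21, the cohesin subunit that holds sister chromatids together, rose in summer from a median of 3.08 to 7.46 FPKM (1.12 ± 0.34, adjusted p = 0.0256) and had a difference of 0.98 ± 0.45 in spring (adjusted p = 0.124). The summer call was lost without any of 6 libraries, with an adjusted p of up to 0.0599. RAD18, a ubiquitin ligase that modifies PCNA, did not overlap between GV and MII libraries in spring (0.36 ± 0.12, adjusted p = 0.05001).

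**Figure D4:**
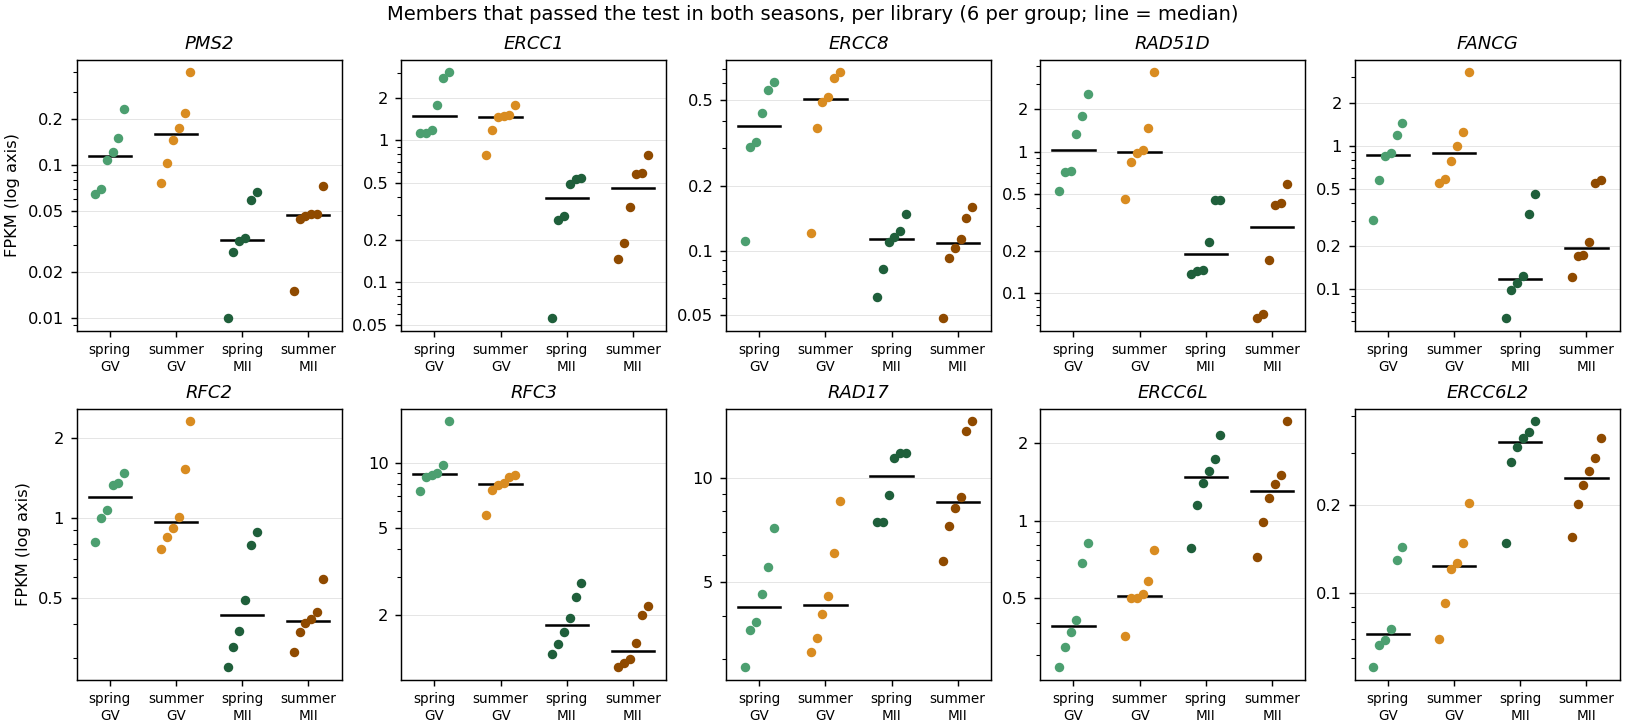
The FPKM of 10 members that passed in both seasons (log axis, 1 point per library in order of value, 6 per group, line at the median). ERCC1 and RFC3 have no overlap between GV and MII libraries in either season, while ERCC8 overlaps in both.

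The members that fell in either season had a shorter median span than those that rose, as did all genes. The 15 members that fell in either season had a median genomic span of 14.01 kb and the 12 that rose had 29.7 kb. Over all genes tested the medians were 9.41 kb for the 2342 that fell and 27.7 kb for the 1175 that rose. The median GV level was 1.35 FPKM for the members that fell and 2.07 FPKM for those that rose, against 1.29 and 1.12 FPKM over all genes. These are descriptions of the 2 sets, and the spans include introns.

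Further genes of the same pathways were taken from lists. Of 57 further repair and checkpoint factors tested, 9 fell and 9 rose in spring (15.8% each, beside 14.7% and 9.45% of all genes). In summer 13 fell and 7 rose (22.8% and 12.3%, beside 23.1% and 7.67% of all genes). MAD2L2, a subunit of the translesion polymerase zeta that also directs end joining, fell from 35.6, 56.2 and 90.2 FPKM to 4.97, 10.7 and 14.1 FPKM in spring (-2.49 ± 0.32, adjusted p = 0.000247) and by 2.99 ± 0.19 in summer (adjusted p = 1.78e-06). APTX, which removes blocked ends from broken strands, fell by 1.78 ± 0.19 and 1.87 ± 0.13, and ALKBH3, which reverses alkylation, by 0.42 ± 0.11 and 0.53 ± 0.06. CHEK1, the checkpoint kinase that acts under ATR, rose by 1.29 ± 0.21 and 1.03 ± 0.15, from medians of 1.58 and 1.84 FPKM to 5.65 and 4.81 FPKM with no overlap in either season. USP1, which takes ubiquitin off FANCD2 and PCNA, rose by 1.29 ± 0.29 and 0.95 ± 0.20, and the glycosylase NEIL3 by 0.97 ± 0.19 and 0.77 ± 0.20.

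Of 35 further replication factors tested, 2 fell and 11 rose in spring (5.71% and 31.4%, beside 14.7% and 9.45% of all genes). In summer 5 fell and 6 rose (14.3% and 17.1%, beside 23.1% and 7.67% of all genes). POLD2, a small subunit of DNA polymerase delta, fell from medians of 0.706 and 0.829 FPKM to 0.0699 and 0.0642 FPKM with no overlap in either season (adjusted p = 0.00234 and 5.50e-05). The fork protection factor TIPIN rose by 1.20 ± 0.21 and 1.36 ± 0.24, DSCC1, a subunit of an alternative clamp loader, by 0.93 ± 0.24 and 1.12 ± 0.16, and WDHD1, which joins helicase and polymerase, by 0.72 ± 0.12 and 0.52 ± 0.16. Of the meiotic recombination genes, 9 were tested, among them the member MSH5, and none passed in spring. In summer PSMC3IP fell (-1.01 ± 0.32, adjusted p = 0.0292) and its partner MND1 rose (0.64 ± 0.12, adjusted p = 0.00182). Each is 11.1% of the 9, beside 23.1% of all genes that fell and 7.67% that rose.

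Between summer and spring, no member passed the test at either stage. In GV oocytes, 0 of 73 members had an adjusted p under 0.05, beside 0% of all genes tested, and 3 had an unadjusted p under 0.05, beside 1.55% of all. In MII oocytes, 0 of 73 had an adjusted p under 0.05, beside 0% of all, and 1 had an unadjusted p under 0.05, beside 2.11%. No member reached an unadjusted p under 0.05 with a fold over 2 on log2(FPKM + 1) at either stage. The shares of all genes were 0.0315% in GV and 0.042% in MII oocytes. This scale understates the fold of genes near or under 1 FPKM, so the absence says little about the scarce members. No member had seasons that did not overlap, beside 0.178% of all genes at each stage. The median log2 difference of the members between summer and spring was 0.08 in GV and -0.01 in MII oocytes, against 0.01 and -0.01 for all genes. In GV oocytes 58 of the 73 members had a positive difference, beside 5243 of the 9526 genes, and in MII oocytes 34 of 73 had one, beside 3969 of 9526. The 95% interval of a member's difference reached a median of 0.41 to either side in GV and 0.36 in MII oocytes.

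The 3 GV members with an unadjusted p under 0.05 all had higher means in summer. BRCA1 lay at 0.0307, 0.0933 and 0.233 FPKM in spring GV and 0.147, 0.184 and 0.316 FPKM in summer GV oocytes (0.12 ± 0.05, unadjusted p = 0.0406, adjusted p = 1). RAD50 lay at 0.964, 1.55 and 2.28 FPKM in spring and 1.57, 2.41 and 4.39 FPKM in summer (0.47 ± 0.21, unadjusted p = 0.0491, adjusted p = 1). MSH5 (chromosome 23, 27375873 to 27395810) lay at 0.177, 0.255 and 0.483 FPKM in spring and 0.326, 0.423 and 1.35 FPKM in summer (0.31 ± 0.14, unadjusted p = 0.0495, adjusted p = 1). The GV mean of MSH5 was 0.281 FPKM in spring and 0.619 FPKM in summer, a fold over 2 in FPKM though not on log2(FPKM + 1). The seasons overlapped for all 3 genes, and the highest summer value of each belonged to the shallow replicate 2. Without that library the unadjusted p was 0.0765 for BRCA1, 0.0940 for RAD50 and 0.0721 for MSH5, and without all 3 shallow libraries it was 0.00192, 0.0359 and 0.105. Over the libraries left out singly it ranged from 0.00354 to 0.0877 for BRCA1, from 0.0260 to 0.108 for RAD50 and from 0.0335 to 0.0969 for MSH5. In MII oocytes RPA3 had 111, 117 and 140 FPKM in spring and 126, 145 and 176 FPKM in summer (0.30 ± 0.12, unadjusted p = 0.0298, adjusted p = 1), and its unadjusted p from limma was between 0.0149 and 0.0644 when single libraries were left out.

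**Figure D5:**
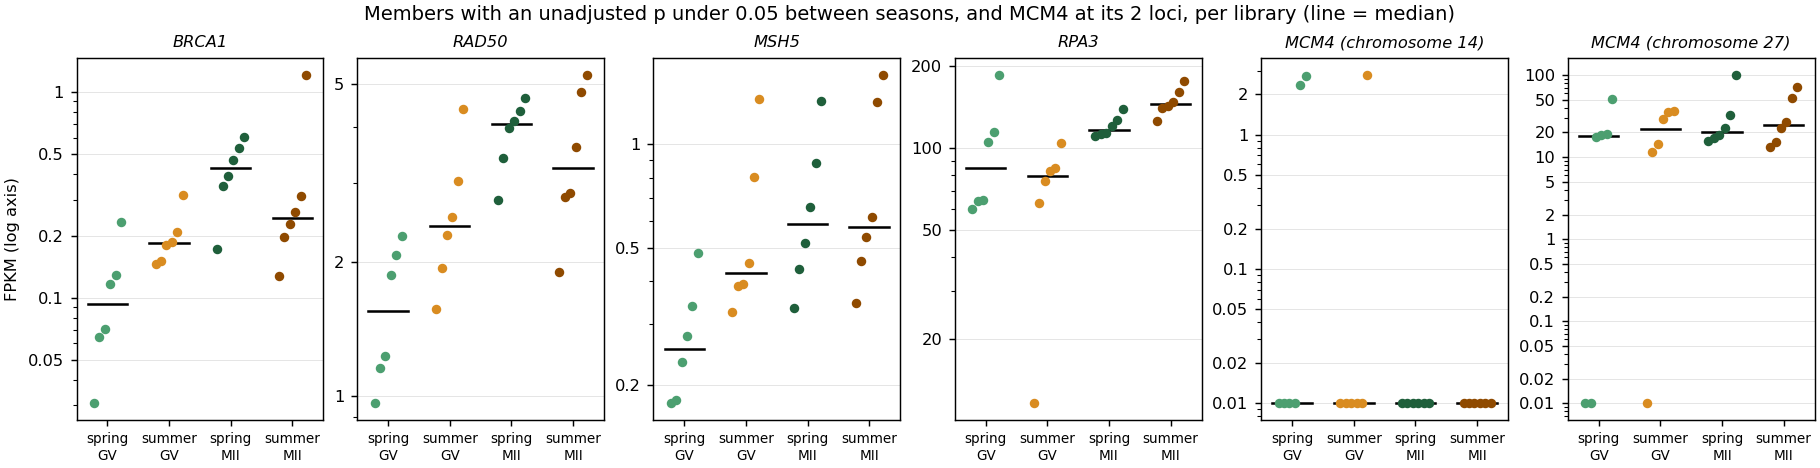
The FPKM of BRCA1, RAD50, MSH5 and RPA3, and of both MCM4 loci, in each library (log axis, 6 points per group, line at the median). The summer GV points of BRCA1, RAD50 and MSH5 overlap the spring GV points, and each library has a value above 0.01 at only 1 of the MCM4 loci.

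The change from GV to MII was not shown to differ between the seasons for any member. In a fit of all 4 groups, 0 of 73 members had an adjusted p under 0.05 for this difference, beside 0% of all genes, and 1 had an unadjusted p under 0.05, beside 1.8% of all. No member reached an unadjusted p under 0.05 with a difference of over 1 on the log2 scale, beside 0.21% of all genes. The 1 member was RAD50, whose change in summer minus that in spring was -0.61 ± 0.29 (unadjusted p = 0.0464, adjusted p = 0.9998). Without summer GV replicate 2 it was -0.49 (unadjusted p = 0.0893), and without the 3 shallow libraries -0.59 (unadjusted p = 0.0463). The unadjusted p was 0.0162 without spring GV replicates 3 and 6, and between 0.0205 and 0.0946 when single libraries were left out. For FANCF and RPA3, the members with the lowest and the highest difference, it was -0.80 and 0.91, and neither passed.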

How the data were processed

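RNA was captured and amplified with a Smart-seq2 kit and sequenced as paired reads in 24 libraries. Reads were trimmed by the authors and mapped with STAR 2.5.3a, and the FPKM values they deposited carry UMD3.1.1 coordinates. The common total of all libraries and the offset of 0.01 were read from the values, and the text does not name these steps. Absolute depth is unknown, and the errors printed hold no counting interval. Whether counting used the strand is not given in the sources used here.

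The 9526 genes that exceeded 0.1 FPKM in at least 1 library were tested as log2(FPKM + 1) with limma 3.58.1 in R 4.3.3, moderated along mean expression, with only the compared groups in the fit and Benjamini-Hochberg adjustment over all genes. The test of the authors' own software was replaced by limma. Single members also had a two-sided exact permutation test. Relative depth was taken from the steps of low values, and 99.9% of 735 held-out values lay within 0.1 of a whole step (20% by chance). The fit was also run on simulated data with independent normal noise of equal spread in all groups. These held no shallow libraries or values at the floor, so the effect of such values on the fit was not covered. Python 3.11.15 was used for the tables.

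Members called in both seasons (up to 3 per role and direction), the most abundant member of each role, and members with an unadjusted p under 0.05 in a season comparison were named by rule. Some members that enter the counts are not reported here. All other members and the ratios were chosen after their values were seen. The members, roles and lists were chosen with earlier results of these data known. Alternatives were other pseudocounts, filters, scalings and fits, a replicate block, and leaving out libraries. Spread is that between 6 pools per group.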

Additional observations from a re-analysis of the deposited data

Results flagged for a closer look

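For 28 members the text names and their 4 groups, 112 in all, the gap of the lowest or highest library to the next was taken on log2(FPKM + 1). As a share of the range of the 6 libraries, it was set against Dixon's 95% critical value, which chance exceeds in about 1 in 20 groups. The gap was above that value in 11 groups, whose values are listed here in FPKM. In the shallow summer GV replicate 2 there were 4 of these. FANCG had 3.24 FPKM there (next highest 1.25), LIG4 had 3.20 FPKM (next 1.14) and RAD9A had 5.28 FPKM (next 1.48), while RPA3 had 11.6 FPKM (next lowest 62.9). In the shallow spring GV replicate 6, which also had the highest sum of granulosa markers (553 FPKM, of which KRT18 was 392 FPKM), there were 3. PARP12 had 14.5 FPKM (next 4.34), RPA2 had 6.2 FPKM (next 2.60) and MCM3 had 4.82 FPKM (next 2.68). The part of depth and of any granulosa RNA in these values was not tested.

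The other 4 were in libraries of greater depth. RFC3 had 15.5 FPKM in spring GV replicate 3 (next 9.80), ERCC2 had 0.702 FPKM in summer GV replicate 3 (next 0.268), and BRCA1 had 1.22 FPKM in summer MII replicate 2 (next 0.313). MCM4 on chromosome 27 had 0.01 FPKM in summer GV replicate 3 (next lowest 11.7), the summer GV library with a value at the locus on chromosome 14.

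The maturation difference of RAD50 in summer less that in spring came to -0.61 on the log2 scale, with an unadjusted p of 0.0464 from limma, and it did not pass (adjusted p = 0.9998). Without summer GV replicate 2 the unadjusted p was 0.0893.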

How the results depend on the processing

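The counts of members that passed depended on several choices. At the thresholds of the study's methods, with the fold taken on log2(FPKM + 1), 2 members were lower and 1 higher in spring. In summer 4 were lower and 3 higher. When members averaging under 1 FPKM were dropped, which left 31 members to test, 4 fell and 5 rose in spring (beside 25% and 19.6% of all genes), and 7 fell and 6 rose in summer (beside 30.1% and 15.6%). Quantile normalization gave 30 that rose in spring and 20 in summer, beside 8 and 14 that fell. With median-of-ratios scaling, 11 fell and 13 rose in spring, beside 18.5% and 11.3% of all genes. In summer 17 fell and 13 rose with this scaling, beside 24% and 15% of all genes. Without the 3 shallow libraries, 15 fell and 25 rose in spring and 14 rose in summer. Without the 2 libraries highest in granulosa markers, an alternative chosen after seeing the data, 13 fell and 22 rose in spring. Leaving out single libraries gave 6 to 12 members that fell and 6 to 22 that rose in spring, and 10 to 16 that fell and 5 to 14 that rose in summer. The 22 came without spring GV replicate 6, the 14 without summer GV replicate 2 and the 5 without summer GV replicate 1. The counts between seasons and for the difference between seasons stayed at 0 in each of these. A pseudocount of 0.1 moved the median of all genes to -0.12 in spring and -0.13 in summer, and none at all to -0.18 and -0.30.

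Of the 39 called values of single members, 26 kept an adjusted p under 0.05 in every alternative fit that gave a value, 75 of 877 alternatives ended a call, and none turned a direction. The thresholds of the study's methods are not among these and were applied to the counts only. Leaving out a library ended 4 of 16 calls in spring, among them those of MSH6, PMS2 and RFC2, and 8 of 23 in summer, those of FANCG, RAD17, RAD21, RAD51D, RAD9A, RFC5, RPA3 and ERCC2. Other alternatives ended the calls of PMS2 in spring, and of ERCC2, RAD51D, RAD9A, RPA3 and XRCC3 in summer.

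The labels do not say whether a replicate number marks an animal, and the libraries could not be shown to be paired by it. The correlation of same-numbered libraries' deviations ranged from -0.169 to 0.535 in spring and from -0.279 to 0.649 in summer, and between the seasons from -0.322 to 0.439 in GV and from -0.441 to 0.764 in MII oocytes. In MII oocytes 4 of the 6 numbers correlated best with themselves, at 0.426 to 0.764, and in no comparison did all 6. With a replicate block, 11 members fell and 16 rose in spring (beside 16.1% and 13.9% of all genes), 15 fell and 11 rose in summer (beside 22.7% and 8.82%), and 0 passed between seasons. The block ended the calls of PMS2 in spring and of RAD51D and RAD9A in summer.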
